A study of Mus musculus with 21 samples.

Results

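The actin cytoskeleton and focal adhesion genes described here are 35 genes for non-muscle actomyosin, for proteins that bundle, cap or decorate actin filaments, and for the plaques that tie filaments to the cell surface. They were listed by symbol, with no threshold on a measured value, and all 35 had a row among the 52636 genes of the deposited count tables. The libraries were stranded total RNA-seq libraries of mouse lung fibroblasts, labelled Ly6C+/Sca-1+ after a pair of surface proteins and stimulated in vitro. The 7 groups, of 3 libraries each, received TGFb1 + CHIR, TGFb1 + IL1b, TGFb1 + TNF, TGFb1 + DMSO, TGFb1, CHIR or DMSO. TGFb1 is the cytokine that turns fibroblasts into contractile, matrix-making cells, IL1b and TNF are inflammatory cytokines, and DMSO is a solvent. CHIR is named in the labels by that short form only, which commonly stands for an inhibitor of the kinase GSK3. The labels of the groups with CHIR name no solvent, and these groups were set against the DMSO groups. An effect of CHIR and a difference in solvent thus cannot be told apart from the labels. All groups share the cell population, and no group without any agent or solvent was analysed here. Dose, exposure time, mouse strain and age are not stated in the sources used here, nor is the origin of the replicates, so p-values measure only the spread between these libraries.

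Contractile fibroblasts build stress fibres, bundles of actin filaments cross-linked by alpha-actinins and filamins, dressed with tropomyosins, calponins and caldesmon, and pulled by non-muscle myosin. The ends of stress fibres are anchored at focal adhesions, where talin, kindlin, vinculin and paxillin couple filaments to integrins, and LIM-domain proteins such as zyxin gather at strained filaments. Loss of free actin monomer releases MRTF, a partner of the transcription factor SRF, which binds the CArG box in promoters of many of these genes. TGFb1 is known for strengthening this system during the change from fibroblast to myofibroblast.

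Library totals ran from 19796379 to 29276382 counts. Levels are given as CPM, counts scaled to library size with TMM factors, and as CPM per kilobase of exon where genes are compared with each other. A gene is called higher or lower where the adjusted p of edgeR's quasi-likelihood test, over 16197 genes, was under 0.05. The collagen-led fibroblast markers were detected in every group. The immune markers summed to between 1.91 CPM (CHIR) and 6.23 CPM (TGFb1 + IL1b), with Ptprc, Adgre1 and Cd3e at 0, the epithelial markers to at most 0.459 CPM, and the endothelial markers to between 5.51 CPM (TGFb1) and 23.9 CPM (TGFb1 + CHIR). Ly6a, which encodes Sca-1, averaged 7.83 CPM in TGFb1 + CHIR and 141.7 CPM in DMSO, and Ly6c1 averaged 0.703 and 49.8 CPM in the same groups. Markers of mural cells and smooth muscle summed to between 232.1 and 429.9 CPM in the 5 groups with TGFb1, 142.7 CPM in CHIR and 198.5 CPM in DMSO, and their levels did not all go one way. Cnn1 averaged 142 CPM in TGFb1 + DMSO and 46.6 CPM in DMSO, and Cspg4 99.5 and 7.48 CPM in the same groups. Lmod1 averaged 28.8 CPM in TGFb1 + DMSO and 75.2 CPM in DMSO, and Notch3 40.03 and 59.7 CPM. The skeletal and cardiac markers summed to 144.8 CPM in TGFb1 + TNF, of which Tnnt2 made up 143.8 CPM, and to 0.311 CPM in CHIR. The part of these markers in the results was not tested, and in bulk libraries fewer cells of a type and less RNA per cell cannot be told apart.

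All 35 genes passed the filter on low counts, but not with equal weight. Ilk, the integrin-linked kinase, held 296 counts over the 21 libraries, and 89.7% of its exon bases lie under genes of the opposite strand, Rrp8 and Taf10. The same overlap covered 25.5% of the exon bases of Vcl (under Ap3m1), 17.7% of Cnn3 (under Gm42928) and 16.3% of Smtn. Of the 50-base words of Tpm4, 11.7% also occur in Gm7809, and of those of Cnn3, 10.3% occur in other genes. The strand setting and the treatment of reads that match several genes are unknown here, so levels of these 5 genes are less certain than the others. Des, with 709 counts in all, and Synpo2, with 3942, are the other members measured thinly.

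Taken per kilobase of exon and averaged over the 7 groups, the genes spanned a wide range of levels. Flna, which cross-links filaments into networks, was highest at 370.2 CPM per kb, followed by Myh9, the heavy chain of the main non-muscle myosin, at 298.4, Tpm4, a short tropomyosin, at 267.4, and Tagln2, a small calponin-family filament binder, at 205.8 CPM per kb. The lowest were Fhod3, a formin of cardiac sarcomeres, at 3.31, Synpo2, a Z-disc and stress fibre protein, at 0.546, Des, the muscle intermediate filament protein desmin, at 0.348, and Ilk at 0.199 CPM per kb. The summed level of all 35 was 18821 ± 302 CPM in TGFb1 + CHIR, 20743 ± 134 in TGFb1 + IL1b, 19699 ± 348 in TGFb1 + TNF, 20899 ± 485 in TGFb1 + DMSO, 23262 ± 118 in TGFb1, 15135 ± 147 in CHIR and 17006 ± 260 in DMSO (mean ± SD, n = 3 each). The sum is led by Myh9, Flna and Cald1; without them it was 10062 ± 114 CPM in TGFb1 + CHIR, 10249 ± 31.3 in TGFb1 + IL1b, 9246 ± 78.4 in TGFb1 + TNF, 10372 ± 237 in TGFb1 + DMSO, 11729 ± 102 in TGFb1, 8323 ± 30.5 in CHIR and 9944 ± 149 in DMSO. On that sum TGFb1 + TNF lay below DMSO.

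No group stood at the top for all genes. By group mean, 9 genes were highest in TGFb1 (Actn1, Actn4, Des, Flna, Myh9, Palld, Tln1, Tpm1 and Tpm2), and 9 others were highest in DMSO (Cnn2, Fhl1, Fhl2, Lima1, Myh10, Parva, Sorbs3, Srf and Synpo2). CHIR was the lowest group for 16 genes and TGFb1 + TNF for 9. TGFb1 + CHIR held the highest level of 4 genes, Csrp1, Fhod3, Flnc and Svil. TGFb1 + TNF held that of 6, Fermt2, Pdlim7, Pxn, Smtn, Tagln2 and Zyx.

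**Figure D1:**
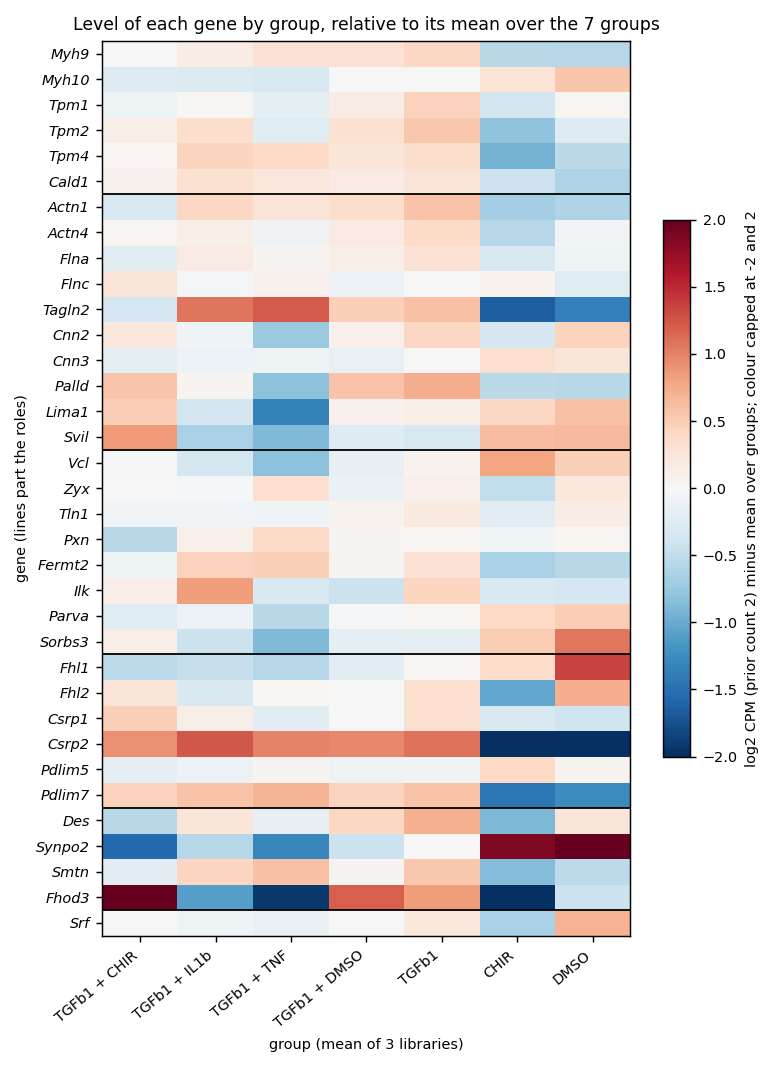
Level of each of the 35 genes (rows, parted by role) in the 7 groups (columns), as log2 CPM with a prior count of 2, averaged over 3 libraries and centred on the gene's mean over the groups; colours stop at -2 and 2. In the columns of CHIR and DMSO, Csrp2, Tagln2 and Pdlim7 are low and Synpo2 is high, and CHIR is the lowest column for 16 genes.

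Srf (chr17:46548329-46556175, GRCm38) encodes the transcription factor of this gene family and was itself among the genes that moved. Its level was 56.9, 57.3 and 53.4 CPM in the TGFb1 + CHIR libraries, 50.8, 53.4 and 52.8 CPM in TGFb1 + IL1b, 51.7, 48.8 and 49.4 CPM in TGFb1 + TNF, 53.9, 57.5 and 55.9 CPM in TGFb1 + DMSO, 59.3, 68.9 and 64.8 CPM in TGFb1, 34.6, 37.8 and 33.7 CPM in CHIR and 92.6, 90.8 and 86.8 CPM in DMSO. The DMSO libraries all lay above every other library and the CHIR libraries all lay below. The 5 groups with TGFb1 lay between them, and their ranges overlapped in part. Srf fell 1.61-fold in TGFb1 + DMSO against DMSO (log2 fold change -0.69 ± 0.0584, SE, edgeR adjusted p = 4.77e-15) and 2.54-fold in CHIR against DMSO (-1.35 ± 0.061, adjusted p = 7.27e-25). In TGFb1 + CHIR it did not pass the test against TGFb1 + DMSO (0.00 ± 0.0603, adjusted p = 0.978), and it was 1.58-fold higher than in CHIR (0.66 ± 0.0627, adjusted p = 2.26e-13). It was lower with IL1b (-0.30 ± 0.0597, adjusted p = 5.99e-05) and with TNF (-0.36 ± 0.06, adjusted p = 7.08e-07) than in TGFb1. Against TGFb1 + DMSO the call with IL1b was lost (-0.09, adjusted p = 0.23), and against TGFb1 without solvent Srf was called lower in TGFb1 + CHIR (-0.20, adjusted p = 0.00436).

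The promoters are shown because SRF acts through the CArG box and the level of Srf itself differed between groups. RefSeq windows of 250 bases before and 50 after a start site (GRCm38.p6) were at hand for 29 of the 35 genes; Svil, Pxn, Parva, Sorbs3, Csrp2 and Fhod3 had none. A CArG box, whose search pattern is matched by any site on both strands, was found in 7 of the 29. These were Cnn2, Fermt2, Fhl1, Fhl2, Lima1, Srf and Vcl. The box was found in 1.81% of all 26994 genes with a window. GGAATG, a motif of the TEAD factors searched on both strands, was in 10 of the 29, Actn4, Cald1, Flna, Flnc, Myh10, Palld, Smtn, Tagln2, Tpm1 and Vcl, and in 16.6% of all genes. GTCTAGAC, a SMAD motif searched on both strands, was in 0 of the 29 and in 0.248% of all genes. The matches are letters in a window and say nothing on binding.

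The 250 bases before the start site are printed 5′ to 3′ for 5 of the 7 genes, with the CArG box in capitals; Srf has 2 of them, and Cnn2, Lima1 and Vcl share the same 10 letters. The windows of Fhl2 and Lima1 shown are those of internal start sites.
Srf chr17:46556163-46556412 (- strand): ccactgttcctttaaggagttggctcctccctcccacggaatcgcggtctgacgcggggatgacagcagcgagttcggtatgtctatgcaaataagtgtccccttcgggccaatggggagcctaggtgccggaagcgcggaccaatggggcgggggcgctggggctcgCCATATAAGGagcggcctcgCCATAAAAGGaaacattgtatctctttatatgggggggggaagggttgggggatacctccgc
Fhl2 chr1:43163962-43164211 (- strand): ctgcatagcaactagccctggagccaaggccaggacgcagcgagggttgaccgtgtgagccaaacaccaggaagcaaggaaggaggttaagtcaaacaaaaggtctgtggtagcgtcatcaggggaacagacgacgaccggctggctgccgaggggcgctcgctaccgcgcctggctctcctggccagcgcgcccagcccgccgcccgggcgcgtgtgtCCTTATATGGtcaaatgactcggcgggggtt
Cnn2 chr10:79988350-79988599 (+ strand): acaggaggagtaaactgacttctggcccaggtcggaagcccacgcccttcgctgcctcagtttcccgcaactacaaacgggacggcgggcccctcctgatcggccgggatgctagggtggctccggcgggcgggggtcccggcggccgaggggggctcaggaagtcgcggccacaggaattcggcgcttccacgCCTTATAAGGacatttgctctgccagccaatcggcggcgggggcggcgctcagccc
Lima1 chr15:99820150-99820399 (- strand): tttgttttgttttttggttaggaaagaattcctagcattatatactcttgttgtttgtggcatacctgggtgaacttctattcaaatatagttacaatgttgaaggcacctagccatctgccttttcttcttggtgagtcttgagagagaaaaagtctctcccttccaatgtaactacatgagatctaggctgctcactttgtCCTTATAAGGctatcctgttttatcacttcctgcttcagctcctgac
Vcl chr14:20929148-20929397 (+ strand): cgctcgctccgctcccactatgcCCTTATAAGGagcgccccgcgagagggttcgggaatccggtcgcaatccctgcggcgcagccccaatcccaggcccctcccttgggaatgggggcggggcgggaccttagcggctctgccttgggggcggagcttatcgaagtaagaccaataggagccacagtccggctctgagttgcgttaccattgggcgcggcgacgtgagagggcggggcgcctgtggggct

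The 7 genes with a CArG box were counted beside the other 22 with a window. In TGFb1 + DMSO against DMSO, 1 of the 7 was called higher and 6 lower, with a median log2 fold change of -0.64, against 14 higher and 5 lower of the other 22 genes with a window, whose median was 0.211. Of all genes, 30.7% were higher and 31.3% lower there. In CHIR against DMSO, 1 was higher and 6 lower with a median of -0.785, against -0.208 for the other 22, of which 3 were higher and 12 lower. Of all genes, 22.1% were higher and 22.7% lower. The medians were -0.613 and -0.255 for TGFb1 + TNF and -0.496 and -0.143 for TGFb1 + IL1b, each against TGFb1. In TGFb1 + CHIR against CHIR, 4 of the 7 were higher and 2 lower with a median of 0.554, against 16 higher and 4 lower of the other 22 with a median of 0.497. Over all genes tested, 33.8% were higher and 32.3% lower there. The set was read from the promoters after results were known and no test was run on it. Srf, whose own differences prompted the search, is part of the set of 7 and of its medians.

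With TGFb1 in solvent, the actin genes split: 17 of the 35 were called higher in TGFb1 + DMSO than in DMSO, 14 were called lower and 4 did not pass. The 88.6% called stands against 62% of all genes tested, with 30.7% higher and 31.3% lower. Of the 31 members with a mean of at least 30 CPM, 93.5% were called, against 80% of all genes at that level (46.9% higher and 33.1% lower). The bound of 30 CPM was chosen after the data were seen, since the members are highly expressed, with a median of 352 CPM against 14.3 CPM over all genes. The median log2 fold change of the 35 was 0.11, against -0.02 over all genes. At 30 CPM or more the medians were close, 0.107 for the 31 members and 0.0926 for all genes. Of those 31 members, 51.6% were higher and 41.9% lower. LIM-domain and filament-binding genes led the rise, with Csrp2 at 13-fold, Tagln2 at 3.56-fold and Pdlim7 at 3.26-fold, whereas Synpo2 fell 5.4-fold and Fhl1 2.94-fold. Of the changes, 5 rises and 3 falls reached 2-fold.

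Among actomyosin motors and tropomyosins, 5 of 6 rose and Myh10 fell, where 30.7% of all genes were higher and 31.3% lower. Myh9 (chr15:77760587-77842175) had 4403, 4513 and 4753 CPM in TGFb1 + DMSO and 2548, 2455 and 2537 CPM in DMSO. Myh10 (chr11:68691559-68816632), which encodes another non-muscle myosin heavy chain, had 357, 356 and 375 CPM in TGFb1 + DMSO and 529.8, 551 and 532 CPM in DMSO. The groups did not overlap for either gene, and the directions were opposite, with a log2 fold change of 0.86 ± 0.0388 (SE, edgeR adjusted p = 1.3e-25) for Myh9 and -0.57 ± 0.042 (adjusted p = 4.15e-17) for Myh10. Tropomyosins, which line actin filaments and govern access of myosin, rose by unequal amounts. Tpm4 had 651, 653 and 674 CPM in TGFb1 + DMSO and 378, 385 and 396 CPM in DMSO (log2 fold change 0.77). Tpm2 had 247, 275 and 295 CPM in TGFb1 + DMSO and 192, 180.3 and 181 CPM in DMSO (0.56). Tpm1 had 1260, 1345 and 1337 CPM in TGFb1 + DMSO and 1294, 1185 and 1182 CPM in DMSO. Its groups overlapped, and its log2 fold change was 0.11 ± 0.039 (adjusted p = 0.0157). That call was lost under DESeq2 (adjusted p = 0.0646), with RLE factors (0.0557), with library totals only (0.323), and without DMSO replicate 2, DMSO replicate 3 or TGFb1 + DMSO replicate 2 (between 0.0789 and 0.0943). Cald1, caldesmon, rose 1.72-fold.

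Crosslinkers and filament binders went both ways, with 6 of 10 higher and 4 lower, where 30.7% of all genes were higher and 31.3% lower. Tagln2 (chr1:172500047-172507380) had 448, 483 and 484 CPM in TGFb1 + DMSO, against 123, 139.7 and 135 CPM in DMSO, and rose by 1.83 ± 0.0426 on the log2 scale (SE, edgeR adjusted p = 2.88e-38). Palld, whose protein palladin bundles filaments, rose 2.18-fold. Every TGFb1 + DMSO library lay above every DMSO library for both. Actn1, an alpha-actinin of stress fibres, had 712, 720.1 and 764 CPM in TGFb1 + DMSO and 376, 385 and 379 CPM in DMSO (1.93-fold). Its relative Actn4 had 507, 512 and 528 CPM in TGFb1 + DMSO and 445, 439 and 443 CPM in DMSO (1.17-fold). Both alpha-actinins were thus higher, without overlap of the groups, and Actn1 by more. Flna had 3646, 3700 and 3889 CPM in TGFb1 + DMSO and 3355, 3239 and 3180 CPM in DMSO. Flnc, the muscle-type filamin, had 371, 373 and 394 CPM in TGFb1 + DMSO and 354, 346 and 345 CPM in DMSO. Both rises were small, 1.15-fold and 1.09-fold, and that of Flnc lost its call with library totals only (adjusted p = 0.196). The 4 that fell were Svil, Lima1, Cnn3 and Cnn2. Svil, whose protein supervillin ties actin and myosin to membranes, had 125, 126 and 127 CPM in TGFb1 + DMSO and 247, 235 and 231 CPM in DMSO, 1.88-fold lower. The calponin Cnn2 had 310.4, 314 and 320.0 CPM in TGFb1 + DMSO and 407, 398 and 392 CPM in DMSO. Its relative Cnn3 had 327, 333 and 309.7 CPM in TGFb1 + DMSO and 431, 423 and 405 CPM in DMSO. Both calponins were lower without overlap, Cnn2 1.27-fold and Cnn3 1.3-fold.

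Focal adhesion components fell more often than they rose. Of 8 genes, Fermt2 alone was called higher (1.52-fold), 4 were called lower (Sorbs3, Vcl, Parva and Zyx), and Tln1, Pxn and Ilk did not pass. Over all genes tested, 30.7% were higher and 31.3% lower, and at 30 CPM or more 46.9% and 33.1%. Sorbs3 (chr14:70180468-70211989), whose protein vinexin binds vinculin, had 51.3, 53.7 and 50.01 CPM in TGFb1 + DMSO and 123, 123 and 119.7 CPM in DMSO. That is 2.36-fold lower (log2 fold change -1.24 ± 0.0612, SE, edgeR adjusted p = 4.51e-24), with no overlap. Vcl, vinculin, had 213, 213 and 220.0 CPM in TGFb1 + DMSO and 338, 338 and 331 CPM in DMSO, 1.56-fold lower. Parva, a partner of the integrin-linked kinase, fell 1.43-fold, and Zyx, zyxin, 1.27-fold. Talin, encoded by Tln1, had a log2 fold change of -0.07 ± 0.0393 (adjusted p = 0.113), and paxillin, encoded by Pxn, 0.01 ± 0.0507 (adjusted p = 0.864).

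The LIM-domain genes held the largest rise and a large fall. Csrp2 (chr10:110919789-110939622), whose protein bundles actin in smooth muscle and activated mesenchymal cells, had 216, 238 and 245 CPM in TGFb1 + DMSO and 19.8, 15.4 and 18.5 CPM in DMSO. The groups were far apart, with a log2 fold change of 3.70 ± 0.0644 (SE, edgeR adjusted p = 4.73e-39). Its relative Csrp1 had 342, 356 and 349.8 CPM in TGFb1 + DMSO and 282, 263 and 246 CPM in DMSO, 1.32-fold higher. Pdlim7 (chr13:55495795-55513676), a PDZ and LIM protein of stress fibres, had 169.5, 185 and 188 CPM in TGFb1 + DMSO and 59.5, 52.5 and 54 CPM in DMSO. The rise was 3.26-fold (1.71 ± 0.0518, adjusted p = 3.6e-33). Pdlim5, of the same family, had 121, 119 and 118 CPM in TGFb1 + DMSO and 125, 133 and 137 CPM in DMSO, 1.11-fold lower, a call lost with no filter (adjusted p = 0.0792) and without DMSO replicate 3 (adjusted p = 0.057). Fhl1 (chrX:56731787-56793346), a protein built of LIM domains, had 135, 143 and 134 CPM in TGFb1 + DMSO and 385, 409.5 and 416 CPM in DMSO. Fhl2, of the same family and a cofactor of SRF, had 70.2, 64.9 and 75.2 CPM in TGFb1 + DMSO and 120.5, 113 and 112 CPM in DMSO. Both fell without overlap, with log2 fold changes of -1.56 ± 0.045 for Fhl1 and -0.72 ± 0.0589 for Fhl2.

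The muscle-type genes differed from each other. Fhod3 had 22.5, 23.5 and 17.2 CPM in TGFb1 + DMSO and 5.75, 8.56 and 6.2 CPM in DMSO, 3.07-fold higher (log2 fold change 1.62 ± 0.131, SE, edgeR adjusted p = 2.16e-12). Synpo2 (chr3:123076519-123236149) had 2.79, 3.58 and 3.88 CPM in TGFb1 + DMSO and 18.1, 20.01 and 17.4 CPM in DMSO, with a log2 fold change of -2.43 ± 0.157 (adjusted p = 2.04e-19). The libraries of the groups did not overlap for either gene. Smtn, smoothelin, rose 1.48-fold, and Des, with a log2 fold change of 0.18 ± 0.32, did not pass (adjusted p = 0.645).

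**Figure D2:**
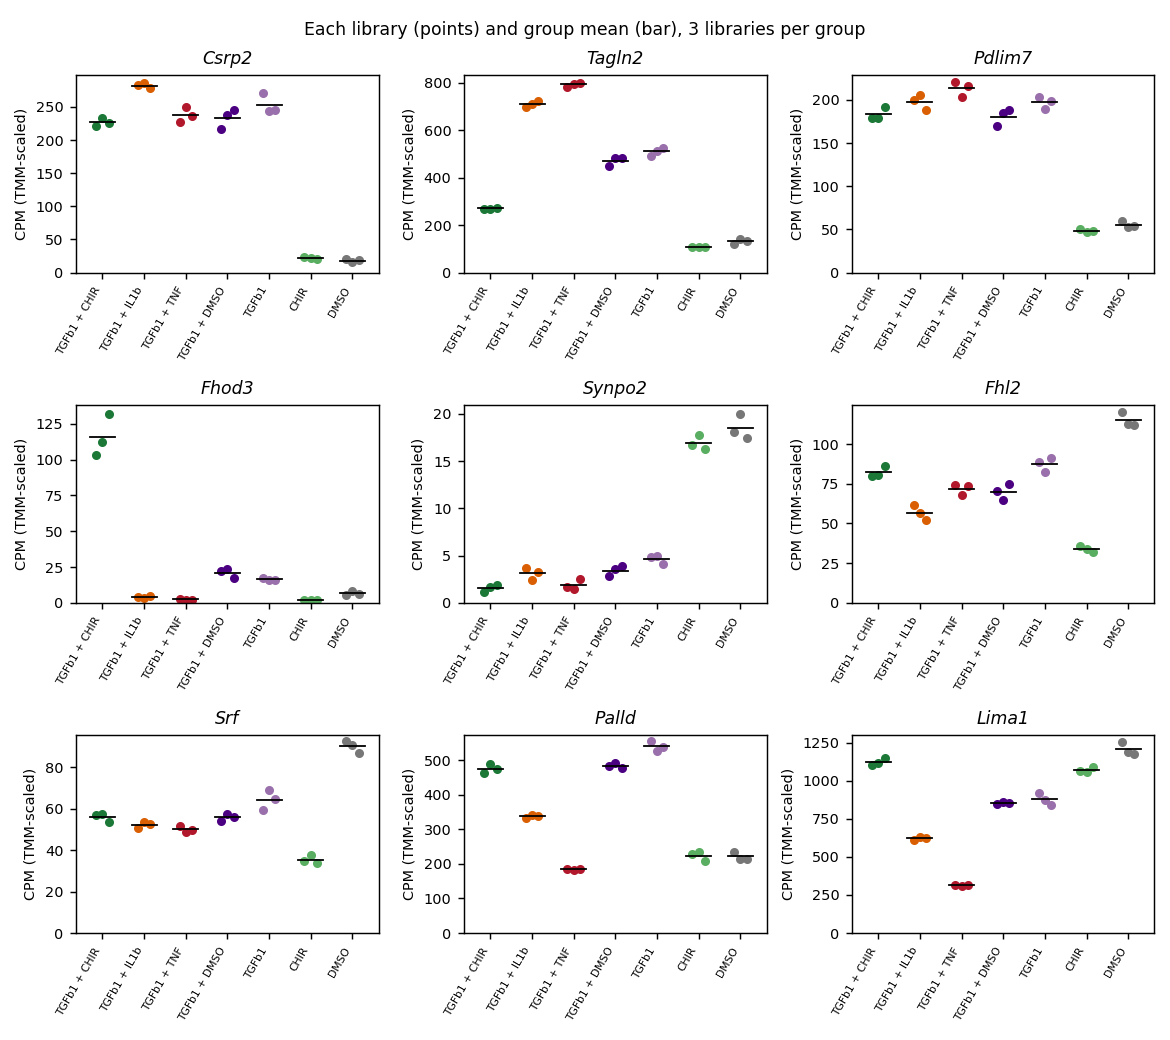
TMM-scaled CPM of 9 genes in every library (points) with the mean of each group (bar), for the 7 groups from TGFb1 + CHIR on the left to DMSO on the right. Csrp2, Tagln2 and Pdlim7 are lowest in CHIR and DMSO, Synpo2 is highest there, Fhod3 stands out in TGFb1 + CHIR, and Palld and Lima1 are lowest in TGFb1 + TNF.

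Most of the actin genes fell with CHIR alone. Of the 35, 21 were called lower in CHIR than in DMSO, 5 were called higher and 9 did not pass. The share called was 74.3%, and the share called lower 60%, against 44.8% of all genes tested, with 22.1% higher and 22.7% lower. At 30 CPM or more, 77.4% of 31 members were called and 66.6% of all genes (39.1% higher and 27.4% lower). The median log2 fold change of the 35 was -0.19, against -0.01 over all genes. The 4 falls of 2-fold or more were in Fhod3, Fhl2, Srf and Des.

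The tropomyosins were lower, as were 5 of the 10 crosslinkers and filament binders, where 22.7% of all genes were lower. Tpm2 had 129, 129 and 122 CPM in CHIR and 192, 180.3 and 181 CPM in DMSO. Tpm4 had 285, 302 and 284 CPM in CHIR and 378, 385 and 396 CPM in DMSO. Tpm1 had 895, 943 and 915 CPM in CHIR and 1294, 1185 and 1182 CPM in DMSO. All 3 tropomyosins fell without overlap, between 1.33-fold and 1.45-fold. Cnn2 had 229.6, 227 and 239 CPM in CHIR and 407, 398 and 392 CPM in DMSO, 1.72-fold lower (log2 fold change -0.79 ± 0.0423, SE, edgeR adjusted p = 7.01e-22). Actn4 fell 1.42-fold, whereas Actn1 did not pass (-0.08 ± 0.0365, adjusted p = 0.0535), nor did Myh9 (0.01 ± 0.0386, adjusted p = 0.828). Flnc was higher, with 431, 423 and 435 CPM in CHIR and 354, 346 and 345 CPM in DMSO (1.23-fold), while Flna fell 1.17-fold.

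Of the focal adhesion genes, 5 of 8 fell and Vcl rose, where 22.7% of all genes were lower and 22.1% higher. Vcl had 414, 417 and 418 CPM in CHIR and 338, 338 and 331 CPM in DMSO, 1.24-fold higher without overlap. Zyx fell 1.62-fold, Sorbs3 1.46-fold and Tln1 1.3-fold. Among LIM-domain genes the fall of Fhl2 was the largest, with 35.7, 34 and 32.3 CPM in CHIR and 120.5, 113 and 112 CPM in DMSO (3.38-fold, log2 fold change -1.76 ± 0.0628, SE, edgeR adjusted p = 4.26e-29). Fhl1 fell 1.97-fold, to 198, 214 and 203 CPM in CHIR. Pdlim5 rose to 164, 177 and 162 CPM in CHIR, against 125, 133 and 137 CPM in DMSO. Csrp2 rose at a low level, with 23.9, 21.5 and 21.1 CPM in CHIR and 19.8, 15.4 and 18.5 CPM in DMSO (0.31 ± 0.0729, adjusted p = 4.10e-04). Among muscle-type genes, Fhod3 had 2.09, 1.64 and 1.85 CPM in CHIR and 5.75, 8.56 and 6.2 CPM in DMSO, 3.68-fold lower (-1.88 ± 0.19, adjusted p = 7.76e-10). Des had 0.708, 0.456 and 0.682 CPM in CHIR and 1.19, 1.41 and 1.74 CPM in DMSO, 2.34-fold lower with a wide error (-1.23 ± 0.362, adjusted p = 0.00418). The mural and smooth muscle markers summed to 142.7 CPM in CHIR and 198.5 CPM in DMSO, but went both ways. Lmod1 averaged 43.2 CPM in CHIR and 75.2 CPM in DMSO, and Notch3 37.3 and 59.7 CPM. Myh11 averaged 6.88 CPM in CHIR and 0.846 CPM in DMSO, and Rgs5 4.78 and 1.09 CPM.

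When CHIR was added to TGFb1, 10 of the 35 genes were called higher in TGFb1 + CHIR than in TGFb1 + DMSO, 17 were called lower and 8 did not pass. Calls made up 77.1% of the genes, against 43.3% of all genes tested, with 20.8% higher and 22.5% lower. At 30 CPM or more, 77.4% of 31 members were called and 62.4% of all genes (31.2% higher and 31.2% lower). The median log2 fold change of the 35 was -0.11, against 0 over all genes. Of the 27 changes, 12 were under 1.2-fold and 3 reached 2-fold, the rises of Fhod3 and Svil and the fall of Synpo2. Against TGFb1 without solvent, 6 genes were called higher and 24 lower.

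Fhod3 had 103, 112 and 132 CPM in TGFb1 + CHIR and 22.5, 23.5 and 17.2 CPM in TGFb1 + DMSO, 5.48-fold higher (log2 fold change 2.45 ± 0.112, SE, edgeR adjusted p = 3.58e-18). Svil had 268, 278 and 269 CPM in TGFb1 + CHIR and 125, 126 and 127 CPM in TGFb1 + DMSO, 2.15-fold higher (1.10 ± 0.0447, adjusted p = 5.31e-27). In both genes the lowest TGFb1 + CHIR library lay far above the highest TGFb1 + DMSO library. Csrp1 had 471, 479.6 and 509 CPM in TGFb1 + CHIR and 342, 356 and 349.8 CPM in TGFb1 + DMSO (1.39-fold). Lima1, whose protein EPLIN stabilises filaments, had 1104, 1116 and 1152 CPM in TGFb1 + CHIR and 849, 859 and 853 CPM in TGFb1 + DMSO (1.32-fold). Flnc was 1.29-fold higher, as it was with CHIR alone, and Sorbs3 was 1.24-fold higher.

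On the lower side, all 6 actomyosin genes had negative values and 5 passed, Cald1 being the exception (adjusted p = 0.0515). Over all genes tested, 22.5% were lower. The call of Tpm2 was lost without TGFb1 + DMSO replicate 3 (adjusted p = 0.0513). Tagln2 had 269.5, 269.9 and 272 CPM in TGFb1 + CHIR and 448, 483 and 484 CPM in TGFb1 + DMSO, 1.74-fold lower (log2 fold change -0.80 ± 0.0412, SE, edgeR adjusted p = 9.67e-23). Actn1 had 459, 473 and 462 CPM in TGFb1 + CHIR and 712, 720.1 and 764 CPM in TGFb1 + DMSO, 1.58-fold lower. Both were lower in every TGFb1 + CHIR library than in any TGFb1 + DMSO library, and the means of both, 271 and 465 CPM, were above those in DMSO, 133 and 380 CPM. Pxn fell 1.52-fold and Flna 1.28-fold. Synpo2 had 1.11, 1.63 and 1.88 CPM in TGFb1 + CHIR and 2.79, 3.58 and 3.88 CPM in TGFb1 + DMSO (2.27-fold lower, adjusted p = 5.66e-06). Des had 0.778, 1.14 and 0.56 CPM in TGFb1 + CHIR and 1.36, 1.6 and 1.94 CPM in TGFb1 + DMSO (-0.98 ± 0.349, adjusted p = 0.0184). The call for Des was lost without TGFb1 + CHIR replicate 1 (adjusted p = 0.0628), without TGFb1 + CHIR replicate 3 (0.101) and without TGFb1 + DMSO replicate 3 (0.0756). Csrp2, Pdlim7 and Palld, 3 of the genes that rose most with TGFb1, did not pass, with log2 fold changes of -0.04 ± 0.0531, 0.02 ± 0.0488 and -0.03 ± 0.042. Against TGFb1 without solvent, Csrp2 (-0.16, adjusted p = 0.0109) and Palld (-0.18, adjusted p = 0.000247) were called lower.

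In CHIR-treated cells, most of the genes rose with TGFb1: 23 of the 35 genes were called higher in TGFb1 + CHIR than in CHIR, 9 lower, and 3 did not pass. The 91.4% called, and the 65.7% called higher, stand against 66.2% of all genes tested, with 33.8% higher and 32.3% lower. Of the 31 members with a mean of at least 30 CPM, 96.8% were called, against 83.5% of all genes at that level (46% higher and 37.4% lower). Over all 35 the median log2 fold change was 0.49, against 0.01 over all genes. Fhod3 rose 62-fold, Csrp2 10.2-fold, Pdlim7 3.77-fold and Tagln2 2.5-fold, and Synpo2 fell 11.2-fold.

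Fhod3 had 103, 112 and 132 CPM in TGFb1 + CHIR and 2.09, 1.64 and 1.85 CPM in CHIR (log2 fold change 5.95 ± 0.155, SE, edgeR adjusted p = 1.7e-25). Csrp2 had 222, 233 and 226 CPM in TGFb1 + CHIR and 23.9, 21.5 and 21.1 CPM in CHIR (3.35 ± 0.0638, adjusted p = 1.22e-37). The separation was complete in both. Pdlim7 had 179, 179 and 192 CPM in TGFb1 + CHIR and 50.5, 47.2 and 48.2 CPM in CHIR. Tagln2 had 269.5, 269.9 and 272 CPM in TGFb1 + CHIR and 108, 108 and 108 CPM in CHIR. These genes, which rose with TGFb1 in solvent too, again had no overlap. Fhl2 had 80.04, 80.6 and 86 CPM in TGFb1 + CHIR and 35.7, 34 and 32.3 CPM in CHIR, 2.41-fold higher, and Palld rose 2.12-fold. Among the 9 that fell, Synpo2 had 1.11, 1.63 and 1.88 CPM in TGFb1 + CHIR and 16.7, 17.7 and 16.3 CPM in CHIR (-3.48 ± 0.184, adjusted p = 6.34e-23). Fhl1 had 109.7, 111 and 111 CPM in TGFb1 + CHIR and 198, 214 and 203 CPM in CHIR, 1.86-fold lower. Vcl and Parva, both of focal adhesions, fell without overlap as well. Vcl had 232, 254 and 223 CPM in TGFb1 + CHIR and 414, 417 and 418 CPM in CHIR (1.76-fold). Parva had 368, 358 and 363 CPM in TGFb1 + CHIR and 565, 567 and 558 CPM in CHIR (1.55-fold). Lima1, Ilk and Des did not pass.

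Set side by side, 17 genes were called higher by TGFb1 both in solvent and in CHIR, among them Myh9, Cald1, Actn1, Tagln2, Palld, Csrp2, Pdlim7 and the 3 tropomyosins. A further 8 were called lower in both, Cnn3, Fhl1, Myh10, Parva, Pdlim5, Sorbs3, Synpo2 and Vcl. Of the 17, Tpm1 lost its call in solvent under the settings named above. Flna lost its call in CHIR (0.07 ± 0.0333) under DESeq2, RLE factors, library totals only, the stricter filter and only the groups compared (adjusted p between 0.22 and 0.501), and without CHIR replicate 1, CHIR replicate 3, TGFb1 + CHIR replicate 1 or TGFb1 + CHIR replicate 2 (between 0.0741 and 0.129). The comparisons use different libraries on both sides. Joint calls were not counted over all genes, of which 62% were called in solvent and 66.2% in CHIR. The joint counts are thus not read as particular to these genes. For 5 genes the direction was opposite: Cnn2, Fhl2, Srf, Svil and Zyx were lower in TGFb1 + DMSO than in DMSO and higher in TGFb1 + CHIR than in CHIR. With TGFb1 without solvent in place of TGFb1 + DMSO, Cnn2 was no longer called lower than in DMSO (adjusted p = 0.574).

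**Figure D3:**
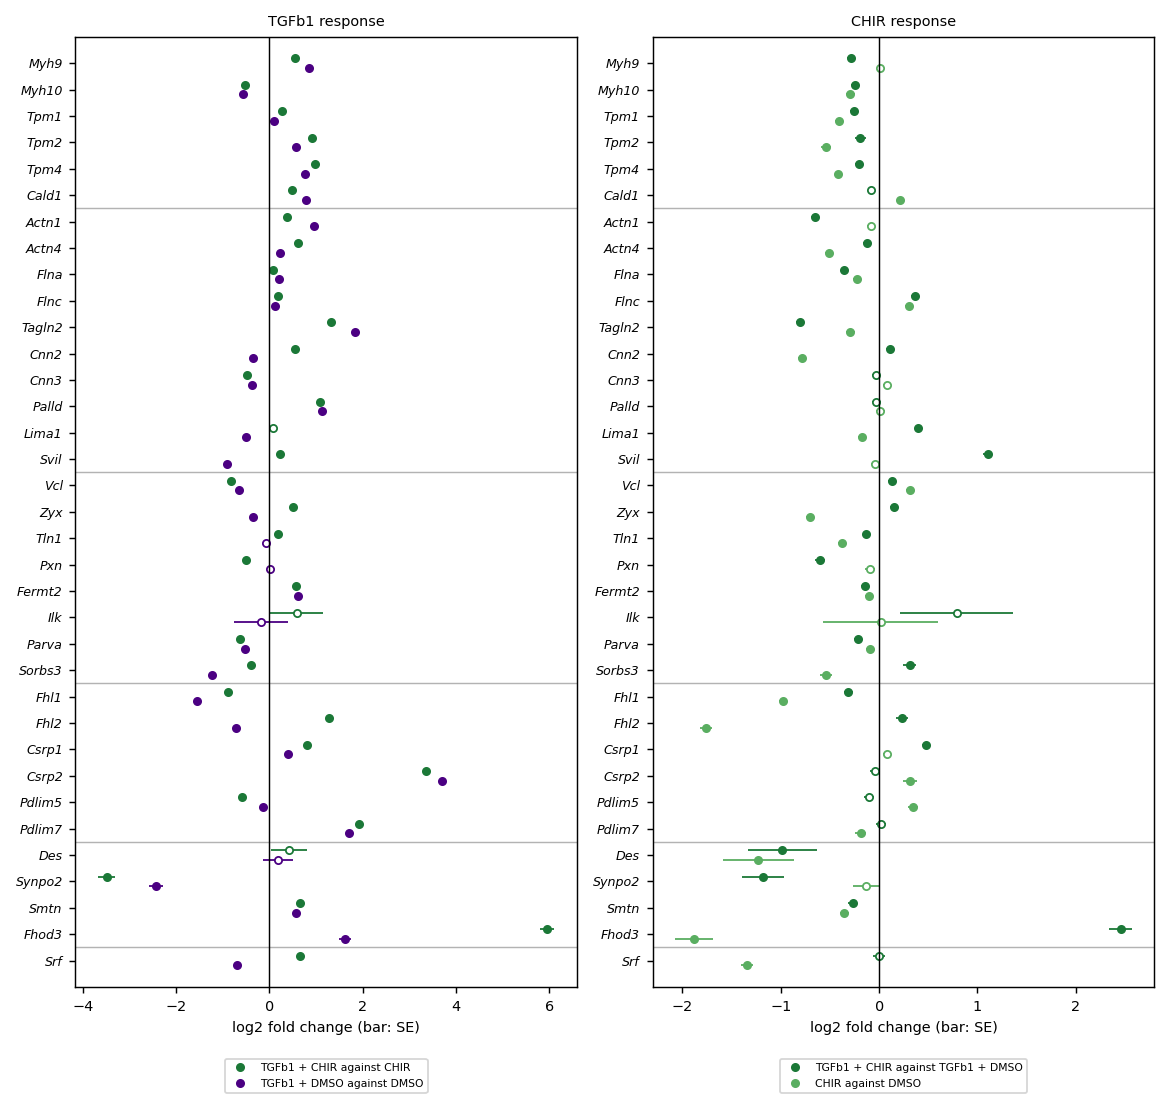
Log2 fold change with its SE for each gene, on the left for TGFb1 (TGFb1 + CHIR against CHIR, and TGFb1 + DMSO against DMSO) and on the right for CHIR (TGFb1 + CHIR against TGFb1 + DMSO, and CHIR against DMSO); filled points passed an adjusted p of 0.05 and open points did not, and lines part the roles. Cnn2, Svil, Zyx, Fhl2 and Srf lie right of 0 for TGFb1 in CHIR and left of it for TGFb1 in solvent, and Fhod3 reaches 5.95 for TGFb1 in CHIR.

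The interaction, the CHIR effect with TGFb1 less the CHIR effect without it, tested this difference for each gene. It was positive and called in 16 of the 35 genes, negative and called in 10, and did not pass in 9. In all 74.3% were called, against 41.2% of all genes tested, with 21% positive and 20.3% negative. At 30 CPM or more, 77.4% of 31 members were called and 63.1% of all genes (28.5% positive and 34.6% negative). The median of the 35 was 0.16, against 0.03 over all genes. For all 5 genes of opposite direction the interaction passed. This adds no support, because the interaction is the difference between the comparisons by which these genes were picked. The largest positive values belonged to Fhod3, at 4.34 ± 0.216 (SE, edgeR adjusted p = 4.03e-17), and Fhl2, at 1.99 ± 0.0868 (adjusted p = 2.17e-25). For Fhl2 the 4 groups read 80.04, 80.6 and 86 CPM in TGFb1 + CHIR, 70.2, 64.9 and 75.2 CPM in TGFb1 + DMSO, 35.7, 34 and 32.3 CPM in CHIR and 120.5, 113 and 112 CPM in DMSO. CHIR libraries were thus lowest and DMSO libraries highest, with both TGFb1 groups between. Srf followed at 1.35 ± 0.0857, Svil at 1.15 ± 0.0623, Cnn2 at 0.90 ± 0.0595, Sorbs3 at 0.85 ± 0.0868 and Zyx at 0.85 ± 0.0574. The largest negative values belonged to Synpo2, at -1.05 ± 0.253 (adjusted p = 5.52e-04), and Actn1, at -0.57 ± 0.0515 (adjusted p = 1.67e-13). Actn1 had 459, 473 and 462 CPM in TGFb1 + CHIR, 712, 720.1 and 764 CPM in TGFb1 + DMSO, 362, 359 and 353 CPM in CHIR and 376, 385 and 379 CPM in DMSO. TGFb1 + DMSO stood highest, TGFb1 + CHIR next, and CHIR lay just under DMSO.

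Seen from the side of CHIR, 6 genes were called lower by CHIR without TGFb1 and higher with it: Cnn2, Fhl2, Fhod3, Lima1, Sorbs3 and Zyx. Their interactions passed, which again nearly follows from how the genes were picked. Against TGFb1 without solvent, Fhod3, Lima1 and Sorbs3 were still called higher. There the slight rise of Cnn2 (0.11 ± 0.042) turned to -0.20, and Fhl2 and Zyx were not called, at -0.09 (adjusted p = 0.239) and -0.08 (adjusted p = 0.0886). A larger group of 13, among them the 3 tropomyosins, Actn4, Flna, Tagln2, Tln1 and Smtn, was called lower by CHIR in both settings. Flnc and Vcl were called higher in both. Such joint calls were not counted over all genes, of which 44.8% were called without TGFb1 and 43.3% with it. The call of Vcl with TGFb1 was lost against TGFb1 without solvent (-0.08, adjusted p = 0.0882), with library totals only (adjusted p = 0.12) and without TGFb1 + CHIR replicate 2 (adjusted p = 0.135). With TGFb1 without solvent in place of TGFb1 + DMSO, the interaction had 10 positive and 16 negative calls. That is the reverse of the 16 and 10 above, so the balance of directions rests on the choice of control. DMSO stayed the control without TGFb1 in that setting, so its control groups have the solvent on one side only.

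IL1b added to TGFb1 was followed by small falls in most of the genes. Of the 35, 23 were called lower in TGFb1 + IL1b than in TGFb1, 4 higher, and 8 did not pass. Called were 77.1%, and called lower 65.7%, against 34.6% of all genes tested, with 17.2% higher and 17.4% lower. At 30 CPM or more, 80.6% of 31 members were called and 53.7% of all genes (23.5% higher and 30.2% lower). Over all 35 the median log2 fold change was -0.21, against 0.00235 over all genes. Of the 27 calls, 13 were under 1.2-fold and Fhod3 alone reached 2-fold. The labels of the cytokine groups, like those of the groups with CHIR, name no solvent. TGFb1 was taken as the control of the cytokine groups, and against TGFb1 + DMSO the count was 10 higher and 14 lower.

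Fhod3 had 4.34, 3.42 and 4.89 CPM in TGFb1 + IL1b and 17.5, 15.8 and 15.6 CPM in TGFb1, 3.87-fold lower (log2 fold change -1.95 ± 0.146, SE, edgeR adjusted p = 1.48e-12). Palld had 332, 341 and 339 CPM in TGFb1 + IL1b and 554, 527 and 538 CPM in TGFb1 (1.6-fold lower). Fhl2 had 61.4, 56.7 and 52 CPM in TGFb1 + IL1b and 88.7, 82.5 and 91.2 CPM in TGFb1 (1.54-fold lower). In these 3 genes no IL1b library reached the lowest TGFb1 library. Synpo2 had 3.68, 2.41 and 3.31 CPM in TGFb1 + IL1b and 4.8, 4.96 and 4.12 CPM in TGFb1 (-0.57 ± 0.176, adjusted p = 0.00845). The call was lost against TGFb1 + DMSO (log2 fold change -0.13, adjusted p = 0.616) and without TGFb1 + IL1b replicate 2 (adjusted p = 0.0974). The 4 genes that rose were Tagln2, Fermt2, Csrp2 and Tpm4. Tagln2 had 699, 711 and 722 CPM in TGFb1 + IL1b and 493, 514 and 525 CPM in TGFb1 (1.39-fold higher, adjusted p = 3.11e-14). Fermt2, whose protein kindlin activates integrins, had 475, 468 and 469 CPM in TGFb1 + IL1b and 424, 417 and 412 CPM in TGFb1 (1.13-fold higher). The other two rises were slight and uncertain. Csrp2 had 282, 285 and 279 CPM in TGFb1 + IL1b and 270.5, 244 and 246 CPM in TGFb1 (1.11-fold), and its call was lost without TGFb1 replicate 2, TGFb1 replicate 3 or TGFb1 + IL1b replicate 2 (adjusted p between 0.0645 and 0.102). Tpm4 had 762, 755 and 768 CPM in TGFb1 + IL1b and 711, 715 and 716 CPM in TGFb1 (1.07-fold, adjusted p = 0.0497), a call lost under DESeq2 and most other settings.

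TNF added to TGFb1 was also followed by falls in most of the genes, some of them large. Of the 35, 22 were called lower in TGFb1 + TNF than in TGFb1, 7 higher, and 6 did not pass. This is 82.9% called, with 62.9% lower, against 56.6% of all genes tested, with 27.7% higher and 28.8% lower. Of the 31 members with a mean of at least 30 CPM, 83.9% were called, against 76.3% of all genes at that level (38.6% higher and 37.7% lower). The 35 genes had a median log2 fold change of -0.33, against -0.00402 over all genes. With TGFb1 + DMSO as control their median was -0.155, against -0.012 over all genes. The falls of 2-fold or more were 5, in Fhod3, Palld, Lima1, Synpo2 and Cnn2. The sum of the fibroblast markers, led by Col1a1 and Col1a2, was 19231 CPM in TGFb1 + TNF and 47284 CPM in TGFb1. Pdgfra averaged 76.8 CPM in TGFb1 + TNF and 424 CPM in TGFb1. Dcn alone of that list went the other way, with 532.7 and 224.5 CPM in the same groups. The part of these markers in the falls was not tested.

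The crosslinkers held 3 of these 5. Palld (chr8:61511433-61902690) had 186, 181 and 186 CPM in TGFb1 + TNF and 554, 527 and 538 CPM in TGFb1, 2.93-fold lower (log2 fold change -1.55 ± 0.0434, SE, edgeR adjusted p = 2.63e-34). Lima1 (chr15:99778470-99875456) had 314, 307 and 316 CPM in TGFb1 + TNF and 918, 873 and 842 CPM in TGFb1, 2.81-fold lower (-1.49 ± 0.0376, adjusted p = 2.64e-36). Cnn2 had 168, 179.5 and 177 CPM in TGFb1 + TNF and 388, 378 and 408 CPM in TGFb1, 2.24-fold lower (-1.16 ± 0.0428, adjusted p = 3.45e-29). TNF libraries lay below TGFb1 libraries by a wide margin in all 3, whereas Cnn3 did not pass, with 323, 339.8 and 335 CPM in TGFb1 + TNF and 360.2, 348 and 351 CPM in TGFb1. Among tropomyosins, Tpm2 fell 1.72-fold to 177, 192 and 192 CPM and Tpm1 1.58-fold to 1028, 1033 and 1039 CPM in TGFb1 + TNF. Tpm4 did not pass (0.05 ± 0.0377). Against TGFb1 + DMSO, Tpm4 was called higher (0.17, edgeR adjusted p = 0.000157), and Tpm1 and Tpm2 were still called lower. In focal adhesions the genes parted. Vcl fell 1.83-fold, to 136, 134 and 139 CPM in TGFb1 + TNF, and Parva and Sorbs3 fell 1.51-fold and 1.6-fold. Pxn rose, with 143, 123 and 131 CPM in TGFb1 + TNF and 102, 100.2 and 111 CPM in TGFb1 (1.26-fold). Zyx rose, with 509, 464 and 473 CPM in TGFb1 + TNF and 408, 405 and 411 CPM in TGFb1 (1.18-fold), and Fermt2, with 463, 483 and 482 CPM in TGFb1 + TNF and 424, 417 and 412 CPM in TGFb1 (1.14-fold). Tagln2 rose most, to 785, 797 and 801 CPM in TGFb1 + TNF, against 493, 514 and 525 CPM in TGFb1 (1.56-fold, adjusted p = 1.85e-19). Of the muscle-type genes, Fhod3 had 2.53, 2.17 and 2.28 CPM in TGFb1 + TNF and 17.5, 15.8 and 15.6 CPM in TGFb1, 7.01-fold lower, and Synpo2 had 1.71, 1.42 and 2.47 CPM in TGFb1 + TNF and 4.8, 4.96 and 4.12 CPM in TGFb1, 2.5-fold lower. Des fell to 1.04, 0.996 and 1.14 CPM in TGFb1 + TNF (-0.99 ± 0.328, adjusted p = 0.0087), a call lost without TGFb1 replicate 3 (adjusted p = 0.162) and against TGFb1 + DMSO (-0.62, adjusted p = 0.103). Smtn did not pass, but against TGFb1 + DMSO it was called higher (0.54, adjusted p = 1.08e-14).

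**Figure D4:**
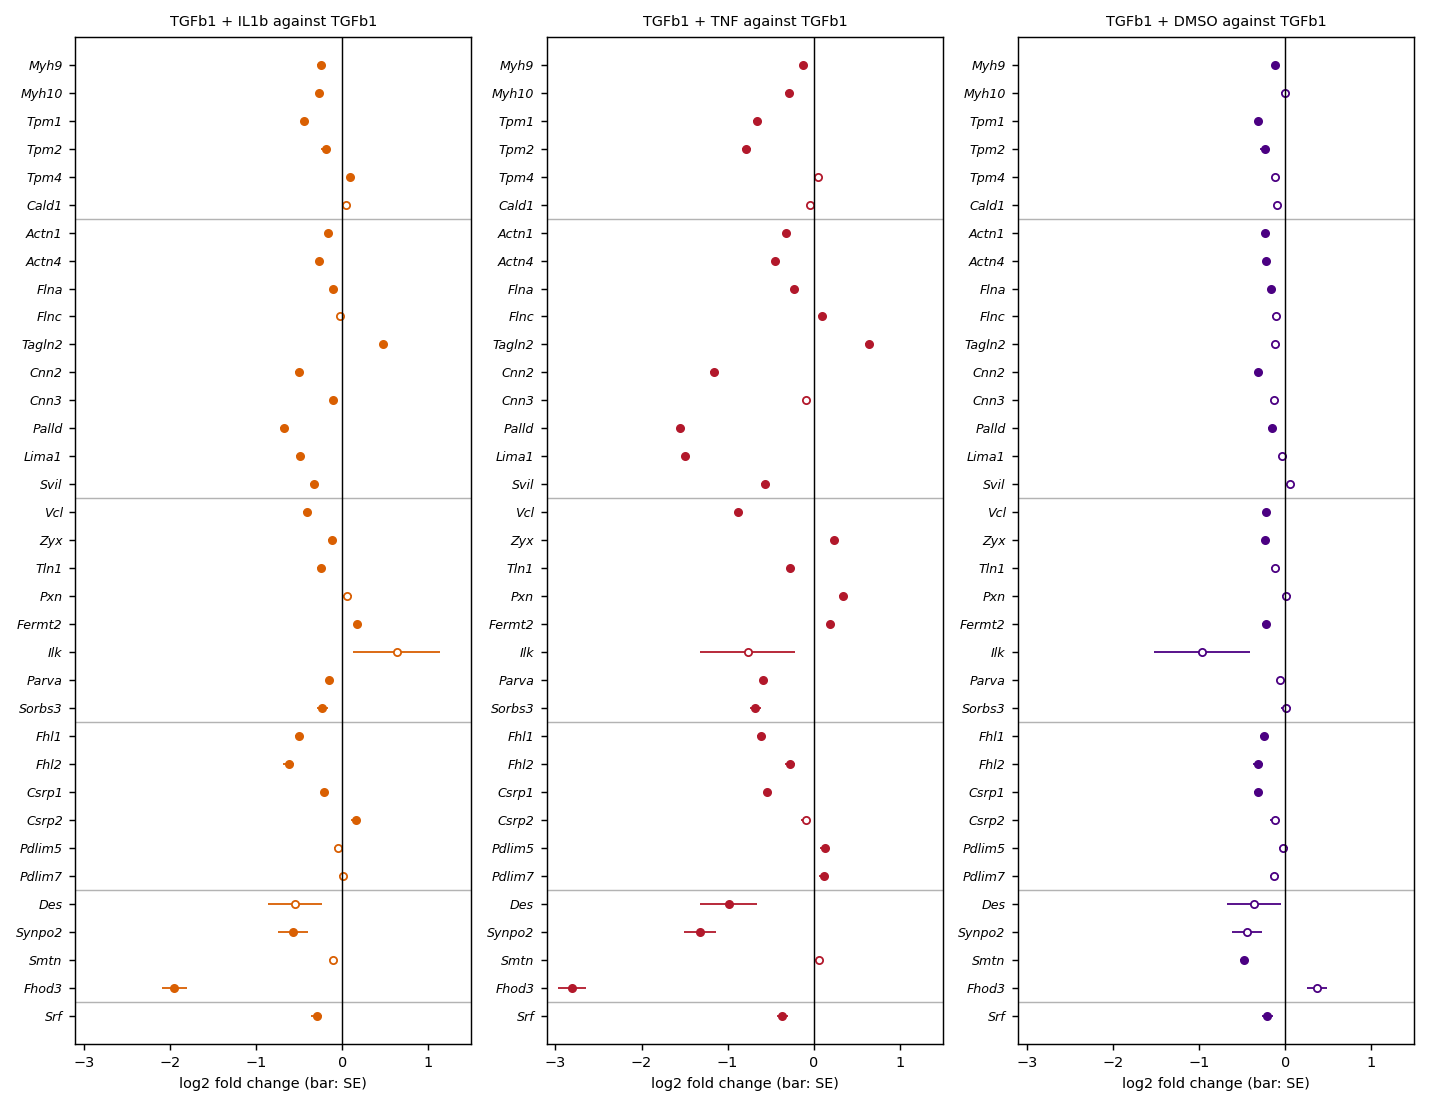
Log2 fold change with its SE for each gene in TGFb1 + IL1b, TGFb1 + TNF and TGFb1 + DMSO, each against the same 3 TGFb1 libraries; filled points passed an adjusted p of 0.05 and open points did not, and lines part the roles. Most filled points lie left of 0, Tagln2 lies right of it in both cytokine panels, and the wide bars of Ilk, Des and Synpo2 go with their low counts.

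The cytokines were also compared directly, since their comparisons with TGFb1 share the TGFb1 libraries. Of the 35 genes, 18 were called higher in TGFb1 + IL1b than in TGFb1 + TNF, 8 lower, and 9 did not pass. The 74.3% called compares with 47.6% of all genes tested, with 24.7% higher and 22.8% lower. At 30 CPM or more, 74.2% of 31 members were called and 68.9% of all genes (31.9% higher and 37% lower). The 35 genes had a median log2 fold change of 0.12, against 0.01 over all genes. Lima1 had 612, 629 and 625 CPM in TGFb1 + IL1b and 314, 307 and 316 CPM in TGFb1 + TNF, 1.99-fold higher (log2 fold change 0.99 ± 0.0372, SE, edgeR adjusted p = 1.87e-28). Palld was 1.83-fold higher and Cnn2 1.58-fold higher. Ilk had 1.44, 1.3 and 0.395 CPM in TGFb1 + IL1b and 0.446, 0.498 and 0.228 CPM in TGFb1 + TNF, and its groups overlapped. Its call (1.40 ± 0.529, adjusted p = 0.0254) was lost without TGFb1 + IL1b replicate 1, TGFb1 + IL1b replicate 2 or TGFb1 + TNF replicate 3 (adjusted p between 0.0996 and 0.136). Zyx had 386, 371 and 366 CPM in TGFb1 + IL1b and 509, 464 and 473 CPM in TGFb1 + TNF. Fhl2 had 61.4, 56.7 and 52 CPM in TGFb1 + IL1b and 74.3, 68.2 and 73.6 CPM in TGFb1 + TNF. Both were lower with IL1b without overlap, Zyx 1.29-fold and Fhl2 1.27-fold.

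The solvent itself went with lower levels of these genes. Of the 35, 16 were called lower in TGFb1 + DMSO than in TGFb1 and 19 did not pass. The 45.7% called, all of them lower, compare with 6.13% of all genes tested, with 2.33% higher and 3.8% lower. Of the 31 members with a mean of at least 30 CPM, 51.6% were called, against 11.7% of all genes at that level (4.57% higher and 7.12% lower). None was called higher by edgeR; at an unadjusted p under 0.05 that count was 1, Fhod3, and DESeq2 called 0 higher and 21 lower. The 35 genes had a median log2 fold change of -0.156, against 0.000149 over all genes. The falls were small, with 11 of 16 under 1.2-fold. Smtn had 137, 149.5 and 139 CPM in TGFb1 + DMSO and 201, 197 and 196 CPM in TGFb1, 1.39-fold lower (log2 fold change -0.48 ± 0.0464, SE, edgeR adjusted p = 1.66e-10). Csrp1 had 342, 356 and 349.8 CPM in TGFb1 + DMSO and 459, 429 and 421 CPM in TGFb1, 1.25-fold lower (-0.32 ± 0.0432, adjusted p = 6.06e-07). Fhl2, Tpm1 and Cnn2 followed at 1.25-fold, 1.25-fold and 1.24-fold lower. The mural and smooth muscle markers summed to 328.5 CPM in TGFb1 + DMSO and 429.9 CPM in TGFb1, and their part in this difference was not tested.

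Related genes moved apart in some pairs and together in others. Over the 7 group means, Pearson's r was -0.771 for Myh9 and Myh10 and for Pdlim5 and Pdlim7, and -0.37 for Flna and Flnc. It was 0.0501 for Cnn2 and Cnn3, 0.258 for Fhl1 and Fhl2, 0.74 for Csrp1 and Csrp2, and 0.788 for Actn1 and Actn4. The tropomyosin pairs had r between 0.53 and 0.845. How far a pair parted shows in the difference of log2 CPM within each library. Myh9 less Myh10 was 3.65 ± 0.022 in TGFb1 + DMSO and 2.23 ± 0.060 in DMSO (mean ± SD, n = 3 each), and lay between 3.61 and 3.94 in the 5 groups with TGFb1. Csrp1 less Csrp2 was 0.585 ± 0.073 in TGFb1 + DMSO and 3.88 ± 0.19 in DMSO, with the larger rise in Csrp2. Pdlim5 less Pdlim7 was lower with TGFb1, at -0.597 ± 0.094 in TGFb1 + DMSO and 1.25 ± 0.16 in DMSO. For the alpha-actinins, Actn1 less Actn4 was -0.025 ± 0.020 in TGFb1 + CHIR, 0.506 ± 0.024 in TGFb1 + DMSO and -0.219 ± 0.026 in DMSO. Fhl1 less Fhl2 was highest in CHIR, at 2.59 ± 0.11, against 1.81 ± 0.12 in DMSO, and lowest in TGFb1 + CHIR, at 0.424 ± 0.054. For the calponins, Cnn2 less Cnn3 was -0.927 ± 0.017 in TGFb1 + TNF, against 0.148 ± 0.061 in TGFb1, and -0.937 ± 0.060 in CHIR, against -0.072 ± 0.023 in DMSO. Flna less Flnc ran from 2.58 ± 0.039 in TGFb1 + CHIR to 3.36 ± 0.051 in TGFb1. These are differences of CPM between genes of unequal length, so their change between groups can be read and their size cannot.

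**Figure D5:**
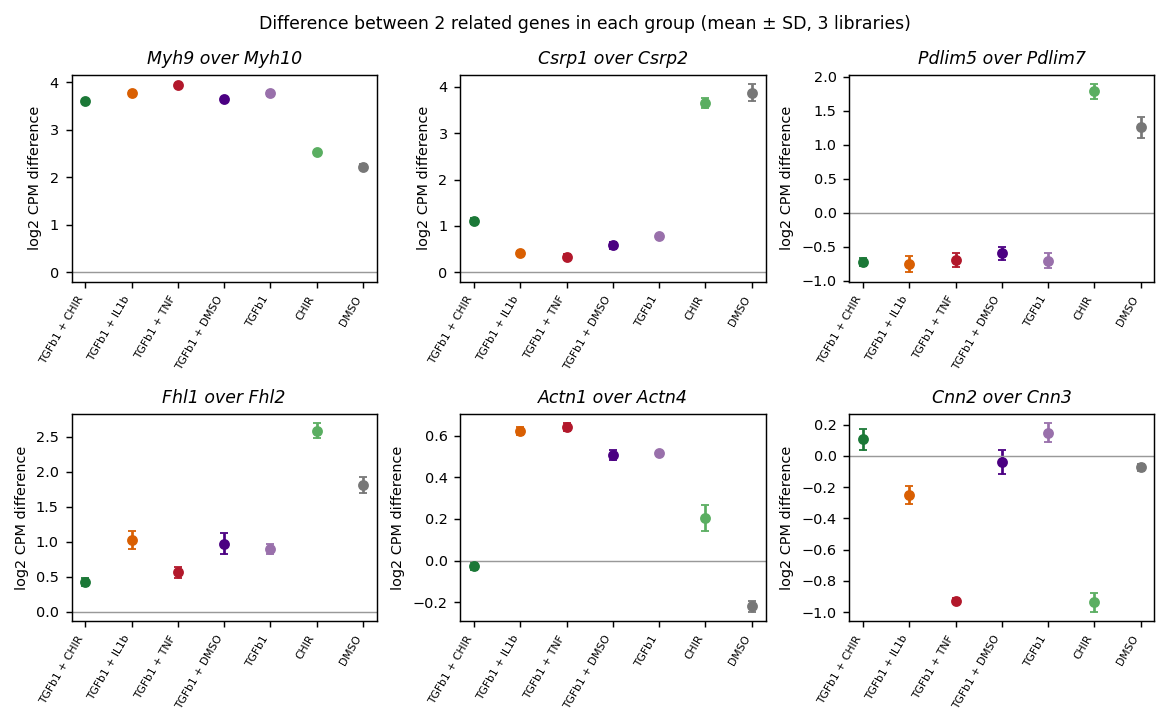
Difference in log2 CPM between 6 pairs of related genes in the 7 groups (mean ± SD of 3 libraries; bars smaller than the point are hidden). Pdlim5 over Pdlim7 and Csrp1 over Csrp2 part the groups with TGFb1 from CHIR and DMSO, and Cnn2 over Cnn3 is near -0.93 in TGFb1 + TNF and CHIR.

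The genes whose group means ran most alike were described with Pearson's r over the 7 groups, without a test, since the groups share cells and TGFb1. Csrp2 and Pdlim7 had r = 0.991, as had Tagln2 and Fermt2. Myh10 was most like Fhl1 (r = 0.979) and Fhl2 most like Srf (r = 0.939). The least alike partner of Tagln2 was Sorbs3 (r = -0.928), and that of Pdlim7 was Cnn3 (r = -0.951). Flnc had no close partner, its highest r being 0.549 with Csrp1.

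Other genes of the same pathway, listed by function but with earlier results of these data known, were counted in the same fits. In TGFb1 + DMSO against DMSO, 9 of 18 genes for actin isoforms and the myosin light chain system were called higher and 6 lower, where 30.7% of all genes were higher and 31.3% lower. Among all genes with a mean of at least 30 CPM, 46.9% were higher and 33.1% lower, near the shares of this list. The lists also hold genes under that level. Cnn1, the smooth muscle calponin, averaged 142 ± 10.3 CPM in TGFb1 + DMSO and 46.6 ± 4.33 CPM in DMSO (mean ± SD, n = 3 each), with a log2 fold change of 1.60 ± 0.0678 (SE). Mylk, the myosin light chain kinase, averaged 12 ± 1.04 CPM in TGFb1 + DMSO and 134 ± 0.321 CPM in DMSO (-3.48 ± 0.131). The smooth muscle genes of this list thus went both ways. Of the filament turnover and Arp2/3 genes, 17 of 26 were higher and 4 lower, led by Tmsb4x, which encodes the monomer-binding thymosin, at 1.30 ± 0.0381. Of the adhesion signalling genes, 14 of 29 were higher and 14 lower. The integrin gene Itga5 averaged 1260 ± 12 CPM in TGFb1 + DMSO and 226 ± 3.14 CPM in DMSO (2.48 ± 0.0368), and Itga1 38.2 ± 2.72 and 252 ± 1.83 CPM in the same groups (-2.72 ± 0.0621). Of the MRTF and YAP genes, 6 of 19 were higher and 10 lower.

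In CHIR against DMSO, 12 of 18 genes for actin isoforms and light chains were called lower and 2 higher, where 22.7% of all genes were lower and 22.1% higher. Among genes of at least 30 CPM those shares were 27.4% and 39.1%. Acta2, smooth muscle actin, averaged 617 ± 49.1 CPM in CHIR and 1114 ± 37 CPM in DMSO (-0.85 ± 0.0493, SE). Of the MRTF and YAP genes, 12 of 19 were lower and 5 higher. Ccn1, a target of both factors, averaged 53.6 ± 5.03 CPM in CHIR and 1170 ± 29.4 CPM in DMSO (-4.45 ± 0.0535). Ankrd1, another target, averaged 16.4 ± 0.816 CPM in CHIR and 161 ± 5.2 CPM in DMSO (-3.30 ± 0.0671). Both had a positive interaction, 3.91 ± 0.0683 for Ccn1 and 4.33 ± 0.0872 for Ankrd1, but Ccn2, also a target, had a negative one, -1.48 ± 0.091. Of the whole list of 19, 7 had a positive and 7 a negative interaction that passed, where 21% of all genes were positive and 20.3% negative. The formin gene Diaph3 had 5.44 ± 0.418 CPM in CHIR and 35.5 ± 3.21 CPM in DMSO, and an interaction of 2.03 ± 0.109. In TGFb1 + CHIR against TGFb1 + DMSO, 9 of 18 genes for actin isoforms and light chains and 18 of 29 adhesion signalling genes were lower, where 22.5% of all genes were. The share among genes of at least 30 CPM was 31.2%. Acta2 averaged 1018 ± 14 CPM in TGFb1 + CHIR and 1819 ± 99.2 CPM in TGFb1 + DMSO (-0.84 ± 0.049), while Mylk averaged 54.3 ± 8.96 and 12 ± 1.04 CPM in the same groups (2.18 ± 0.134). In TGFb1 + CHIR against CHIR, 23 of 26 filament turnover genes were higher and 3 lower, where 33.8% of all genes were higher and 32.3% lower. Among genes of at least 30 CPM those shares were 46% and 37.4%.

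With TNF, 12 of 18 genes for actin isoforms and light chains were called lower than in TGFb1 and 1 higher, where 28.8% of all genes were lower and 27.7% higher. Among genes of at least 30 CPM those shares were 37.7% and 38.6%. Myl9, the regulatory light chain of smooth muscle and non-muscle myosin, averaged 35.1 ± 4.48 CPM in TGFb1 + TNF and 319 ± 7.13 CPM in TGFb1 (-3.19 ± 0.069, SE). Lmod1, a smooth muscle leiomodin, averaged 3.28 ± 1.17 CPM in TGFb1 + TNF and 45.8 ± 3.79 CPM in TGFb1 (-3.80 ± 0.111). These falls were larger than any among the 35 members in that comparison. Of the adhesion signalling genes, 18 of 29 were lower and 9 higher, with Itga11, a collagen-binding integrin gene, at -3.56 ± 0.056. With IL1b, 11 of 18 genes for actin isoforms and light chains and 18 of 29 adhesion signalling genes were lower, where 17.4% of all genes were. The share among genes of at least 30 CPM was 30.2%. In TGFb1 + DMSO against TGFb1, 10 of 18 genes for actin isoforms and light chains and 10 of 26 filament turnover genes were lower, where 3.8% of all genes were. The share among genes of at least 30 CPM was 7.12%. Actg1, which encodes cytoplasmic gamma-actin, held 262 counts over all libraries. It is part of the counts over the 18 genes for actin isoforms and light chains, but its own level is not read here.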

How the data were processed

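Total RNA of mouse lung fibroblasts was extracted with Qiagen RNeasy kits and made into libraries with the Illumina TruSeq Stranded Total RNA kit, per the labels. The authors deposited a table of raw counts per gene for each of 21 libraries. The submitters' processing notes name the builds GRCm38 and GRCh38; the sources used here name no aligner, counter or strand setting. Library totals ran from 19796379 to 29276382 counts. Positions and symbols came from GENCODE M21 (GRCm38), and promoters from RefSeq.

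All 21 libraries were fitted together with edgeR 4.0.16 in R 4.3.3 (TMM factors, default filter on low counts, robust quasi-likelihood test, 1 coefficient per group), with Benjamini-Hochberg adjustment over 16197 genes and a threshold of 0.05. The step was tested on simulated data. Alternatives were DESeq2 1.42.0, other scaling, filters and controls, and leaving out each library. The members and lists were chosen with earlier results of these data known. Values in every library were given for the 4 highest and the 4 lowest called members per comparison (2 each for IL1b against TNF, the solvent and the interaction), Srf and related pairs; for other pathway genes, up to 3 per list by size of change. Replicates were numbered as the samples were listed, and the numbers pair no libraries. Counting error was not given an interval of its own. A list of other pathway genes and a marker gene are not reported here.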

Additional observations from a re-analysis of the deposited data

Results flagged for a closer look

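The effect of CHIR with TGFb1 differed from its effect without TGFb1 in 26 of the 35 genes, by the interaction term of edgeR's fit at an adjusted p under 0.05; 41.2% of all genes tested passed the same test. Values are differences of log2 fold changes, the effect with TGFb1 less that without.

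Among actomyosin genes the difference was 0.35 for Tpm2, 0.21 for Tpm4, 0.16 for Tpm1, -0.29 for Cald1 and -0.30 for Myh9. Among crosslinkers and filament binders it was 1.15 for Svil, 0.90 for Cnn2, 0.57 for Lima1, 0.38 for Actn4, -0.13 for Flna, -0.51 for Tagln2 and -0.57 for Actn1. Among focal adhesion genes it was 0.85 for Sorbs3 and for Zyx, 0.25 for Tln1, -0.18 for Vcl and -0.51 for Pxn. Among LIM-domain genes it was 1.99 for Fhl2, 0.66 for Fhl1, 0.40 for Csrp1, 0.21 for Pdlim7, -0.35 for Csrp2 and -0.45 for Pdlim5. Among muscle-type genes it was 4.34 for Fhod3 and -1.05 for Synpo2, and for Srf it was 1.35.

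With TGFb1 without solvent in place of TGFb1 + DMSO, Tpm1 turned to -0.16 (edgeR adjusted p = 0.0169). DMSO stayed the control without TGFb1, so the control groups have the solvent on one side only. In that setting the calls of Tpm2 (0.11), Tpm4 (0.09), Tln1 (0.13), Csrp1 (0.08) and Pdlim7 (0.08) were lost. Those of Tpm1, Flna, Vcl and Pdlim7 were also lost when single libraries were left out.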

How the results depend on the processing

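Of 315 results for single genes, 240 were called. Counted over all alternatives, calls were lost or gained 87 times under other processing, 96 times on leaving out a library and 41 times with the other TGFb1 group as control. Under other processing and with each library left out, no called gene turned round; with the other TGFb1 group as control, 4 did (Cnn2 with CHIR, Zyx and Csrp1 with IL1b, Tpm1 in the interaction). With TGFb1 without solvent as control, 6 genes were higher in the CHIR comparison with TGFb1, and the interaction had 10 positive and 16 negative calls. With TGFb1 + DMSO as control, IL1b had 10 higher and 14 lower. Leaving out single libraries, IL1b had between 2 and 3 higher genes, with 2 without TGFb1 replicate 2, TGFb1 replicate 3 or TGFb1 + IL1b replicate 2. In TGFb1 + DMSO against TGFb1, 1 gene, Fhod3, was higher with library totals only, with no filter and with only the groups of the comparison, and between 0 and 1 with single libraries left out (1 without TGFb1 + DMSO replicate 3); the genes called in all ran from 649 (without TGFb1 replicate 1) to 897. The cause of these moves was not tested. The stricter filter left out Ilk. No paired analysis was possible because the labels give no replicate numbers that pair libraries. Low counts limit Ilk, Des and Synpo2.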
